A study of Mus musculus with 171 samples.

Results

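Cells of the inner cell mass of the mouse blastocyst were placed on an axis from epiblast (EPI) to primitive endoderm (PrE) by the level of 8 marker genes, and the ends of that axis were compared across all other genes. Every cell collected at embryonic day (E) 3.5 was scored, and the 80 cells at the ends of the axis are the subject here, of 171 single cells in the series. The score of a cell was the mean log2(CPM + 1) of Gata6, Gata4, Sox17 and Pdgfra minus the mean of Nanog, Fgf4, Prdm14 and Sox2, where CPM is a gene's count scaled to the cell's own total. The 40 highest-scoring cells are called the PrE-biased group and the 40 lowest the EPI-biased group, and 39 cells lay between them. Cells were thus selected on the measured levels of the 8 genes, whose differences between the groups are a description and carry no test. The E3.5 cells came from 5 embryos labelled Stat3 -/- (MUT, 55 cells) and 5 wild-type embryos (WT, 64 cells), all labelled as inner cell mass. A second set of 52 cells, titled E3.75, carries EPI (28 cells) or PrE (24 cells) labels and came from 4 MUT and 3 WT embryos. Neither these cells nor their labels entered the score groups. The title of these cells says E3.75 while their source label says E3.5, and how the lineage labels were assigned, the strain and the Stat3 allele are not stated in the labels.

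The inner cell mass gives rise to the epiblast, which forms the body of the fetus, and the primitive endoderm, which forms the lining of the yolk sac. Early inner cells carry both NANOG, a pluripotency factor, and GATA6, a zinc-finger factor of the endoderm. FGF4 made by cells of epiblast character acts through FGF receptors and ERK on their neighbours and drives them towards endoderm, where SOX17, GATA4 and the receptor PDGFRA are then expressed. STAT3, a transcription factor activated by LIF-type cytokines, helps to maintain the naive pluripotent state.

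Total counts per E3.5 cell ranged from 163822 to 25095390, with a median of 4328022 in the PrE-biased group, 2525344 in the middle and 5633434 in the EPI-biased group. The median number of genes detected was 9274, 8684 and 9048, and mitochondrially encoded mRNA made up a median of 2.98%, 4.05% and 4.27% of counts, in the same order. The mitochondrial medians pool embryos. Of the 40 PrE-biased cells, 14 came from embryo MUT 10, at 0.588% to 4.28%, and those of WT embryos ranged from 2.27% to 13.8%. Stat3 had a lower median in MUT than in WT cells, at 0.652 against 19.8 CPM in the PrE-biased and 0.584 against 66.4 CPM in the EPI-biased group. Among MUT cells, reads of Stat3 reached 79.4 CPM in the middle, in the shallowest E3.5 cell (163822 counts). They reached 56.6 CPM in the EPI-biased and 49.1 CPM in the PrE-biased group, and the labels do not say which part of the gene was deleted. The sum of the 19 trophectoderm markers, genes of the outer layer of the blastocyst, ranged from 176 to 1183 CPM in PrE-biased and from 92.9 to 1616 CPM in EPI-biased cells. Of the defining markers, Cdx2 was at 0 in 39 of 40 cells of both outer groups, and Elf5 in 35 PrE-biased and 39 EPI-biased cells. Gata3 was at 0 in 22 PrE-biased and 28 EPI-biased cells and reached 74.9 and 58.2 CPM. The keratin Krt8 was detected in every cell of both groups, with medians of 193 and 93.7 CPM, and Krt18 had medians of 0.678 and 0.616 CPM. The part of these markers in the results was not tested. One E3.75 cell labelled PrE, of WT embryo 1, stood apart with 16612 CPM of these markers against at most 2326 in any other E3.75 cell, and with the lowest score of its lineage. In 6 E3.5 cells the balance of Xist and Y-linked reads went against the sex of the rest of their embryo. The shares and the counts of called genes at E3.5 were also computed without the 6 cells, and the count at E3.75 without the cell high in trophectoderm markers.

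The 8 score genes did not separate the groups equally. Pdgfra had a median of 489 CPM in PrE-biased, 123 in middle and 3.62 in EPI-biased cells, and Gata6 had medians of 117, 52.6 and 1.88 CPM. Gata4 and Sox17 were high mainly at the upper end, with medians of 120 and 28 CPM in the PrE-biased group against 3.17 and 3.56 CPM in the middle. For Sox17 this pools genotypes that lay apart. In counts summed per embryo and scaled as in the gene comparison below, PrE-biased cells had 178 to 231 CPM of Sox17 in MUT embryos. In WT embryos they had 0 to 16.1 CPM. The EPI-biased medians of Gata4 and Sox17 were 0.691 and 0.282 CPM. All 4 endoderm markers thus had higher medians in middle than in EPI-biased cells, and those of Gata4 and Sox17 stayed under 4 CPM. On the epiblast side, Nanog had a median of 436 CPM in EPI-biased and 7.81 CPM in PrE-biased cells, with the middle median between them. Fgf4 had medians of 39, 1.19 and 0.283 CPM, Prdm14 of 15.2, 0.828 and 0.318 CPM, and Sox2 of 7.21, 1.11 and 0.181 CPM. Nanog was thus the one epiblast marker of the score with a middle median above 2 CPM. These orders follow from how the cells were chosen.

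**Figure D1:**
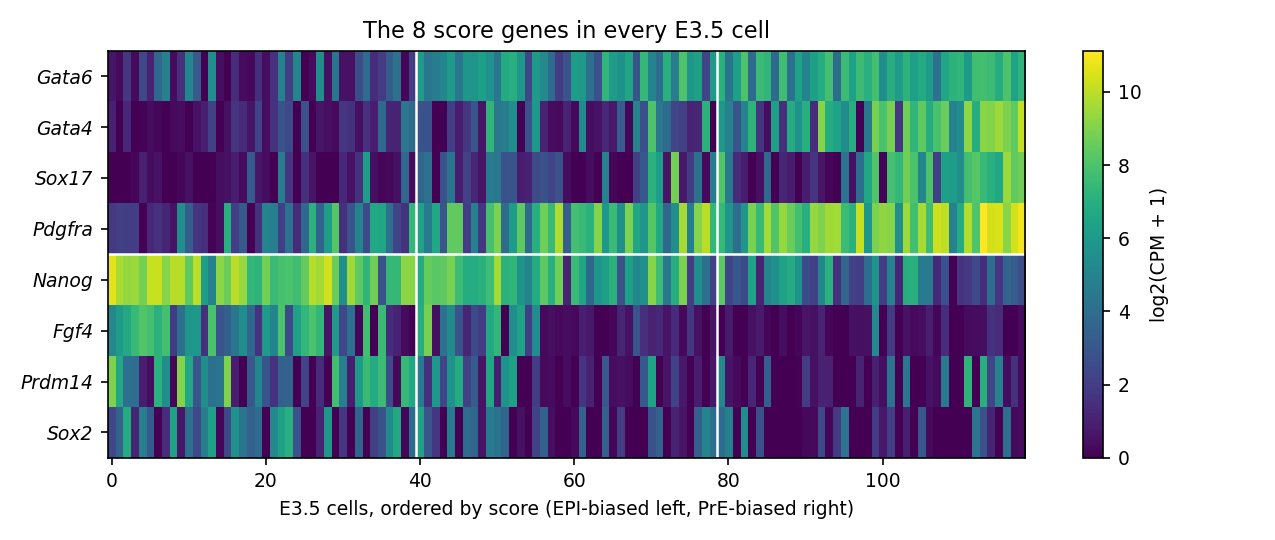
Each column is 1 E3.5 cell, ordered by score from EPI-biased (left) to PrE-biased (right), each row is 1 of the 8 score genes, and colour gives log2(CPM + 1). White lines mark the groups; Gata6, Pdgfra and Nanog form gradients through the middle, whereas Gata4 and Sox17 are high mainly in the rightmost cells and Fgf4 in the leftmost.

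Cells with both GATA6 and NANOG transcripts were common. Gata6 and Nanog were both at 10 CPM or more in 30 of 39 middle cells, 19 of 40 PrE-biased and 10 of 40 EPI-biased cells. After each cell was thinned to 500000 counts, which left out 7 shallower cells, the counts were 27 of 35, 19 of 38 and 9 of 39. Pdgfra, which encodes a PDGF receptor, and Fgf4 were both at 10 CPM or more in 8, 1 and 8 cells, and in 6 of 35, 1 of 38 and 10 of 39 after thinning. Across the E3.5 cells (55 MUT and 64 WT), which share libraries of different depth and embryos of 2 genotypes, Spearman's rho was -0.57 for Gata6 with Nanog and 0.54 for Gata6 with Pdgfra. It was 0.01 for Sox17 with Prdm14 and -0.16 for Gata6 with Sox2, so that the markers of the 2 sides were not mirror images in every pair. Doublets were not searched for.

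The score had no gap at either bound. It ran from -5.93 to 8.31, with the cells just inside and just outside the EPI-biased group at -1.56 and -1.46 and those at the PrE-biased bound at 2.76 and 2.65. Median scores were -2.93 in the EPI-biased, 1.48 in the middle and 4.89 in the PrE-biased group. The labelled E3.75 cells lay farther apart, with a median of -5.56 in EPI (range -7.27 to 0.31) and 6.55 in PrE (range 0.43 to 8.02). Of the E3.75 cells, 25 of 28 EPI cells lay at or below the EPI-biased bound and 23 of 24 PrE cells at or above the PrE-biased bound, so that the score ordered nearly all cells as their lineage labels did. The PrE cell outside was the one high in trophectoderm markers. Whether the labels were assigned from the same markers is not known, so the match of score and labels may not be independent. Only 2 E3.5 cells reached the E3.75 EPI median, neither of them MUT, and 3 reached the PrE median, all of them from the single embryo MUT 10.

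**Figure D2:**
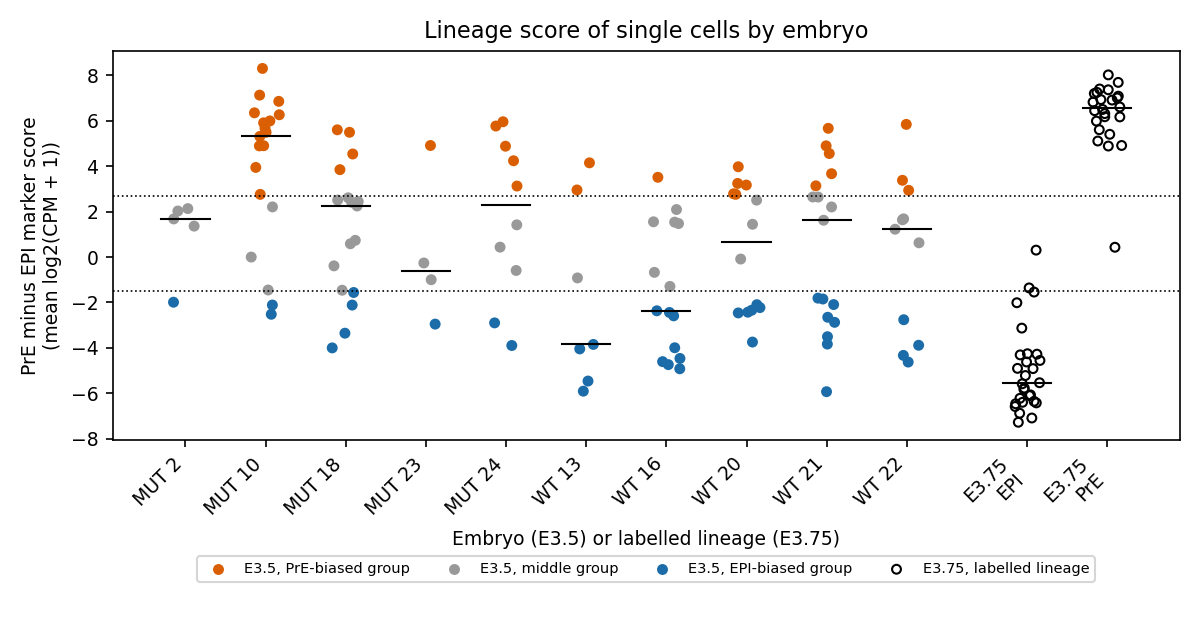
Each point is the score of 1 cell (mean log2(CPM + 1) of PrE minus EPI markers), by embryo for E3.5 and by labelled lineage for E3.75; black bars are medians and dotted lines the bounds of the groups. The E3.5 cells spread without a gap between the bounds, whereas the E3.75 medians lie at -5.56 and 6.55; MUT 10 has the highest embryo median, 5.31.

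The share of cells in each group was then compared between genotypes, with the embryo as the unit. MUT embryos had fewer EPI-biased cells: 10 of 55 MUT cells were in the EPI-biased group, 21 in the middle and 24 in the PrE-biased group, against 30, 18 and 16 of 64 WT cells. The EPI-biased share was 20% in MUT 2, 10.5% in MUT 10, 23.5% in MUT 18, 25% in MUT 23 and 20% in MUT 24. In WT it was 57.1% in WT 13, 53.3% in WT 16, 42.9% in WT 20, 47.1% in WT 21 and 36.4% in WT 22. Every MUT embryo was below every WT embryo, but the shares of MUT 2 (1 of 5 cells) and MUT 23 (1 of 4 cells) rest on few cells. In these embryos 1 cell moves the share by a large step, and the lowest WT share, in WT 22, was 4 of 11 cells. The mean share was 19.8% ± 5.64 (SD, n = 5) in MUT and 47.4% ± 8.26 (SD, n = 5) in WT, a difference of -27.5 percentage points. The exact two-sided permutation test over embryos gave p = 0.00794, the smallest its 252 splits allow, or 0.0159 after adjustment for the 2 outer groups. Lower Nanog and higher PrE markers in MUT inner cells were already known from these same data when the score was proposed, so this share is not independent support for that pattern. Nanog, a score gene, also differed within the EPI-biased group. In counts summed per embryo it was at 145 to 373 CPM in MUT and 457 to 969 CPM in WT embryos. The part of the Nanog level in the share was not tested.

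The PrE-biased share did not differ beyond its spread. It was 0% in MUT 2, 73.7% in MUT 10, 23.5% in MUT 18, 25% in MUT 23 and 50% in MUT 24, and 28.6%, 6.67%, 35.7%, 29.4% and 27.3% in WT 13, 16, 20, 21 and 22. MUT 10 and MUT 24 were above all WT embryos and MUT 2 below all of them. The mean was 34.4% ± 28.2 (SD, n = 5) in MUT and 25.5% ± 11 (SD, n = 5) in WT, a difference of 8.92 points (exact permutation p = 0.532, adjusted 0.532). MUT 10 gave 14 of the 24 MUT cells of this group, and without it the difference was -0.895 points. With 30 cells per side it was 19.2 points (exact permutation p = 0.119). The middle share was 45.7% ± 24.4 (SD, n = 5) in MUT and 27.1% ± 10.7 (SD, n = 5) in WT, and it follows from the other shares.

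**Figure D3:**
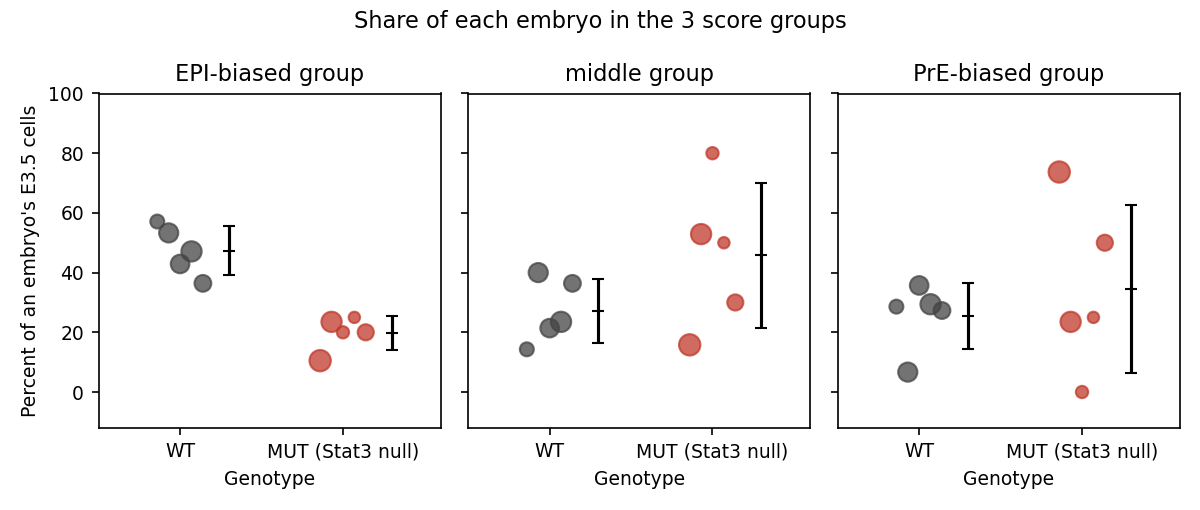
Points are embryos (area grows with the number of cells), given as the percent of an embryo's E3.5 cells in the EPI-biased, middle and PrE-biased groups for 5 WT and 5 MUT embryos; bars are mean ± SD. The EPI-biased share was 36.4% to 57.1% in WT and 10.5% to 25% in MUT with no overlap, and the PrE-biased shares overlap, from 0% to 73.7% in MUT.

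Sex and the letter that ends each cell's title moved with these shares in part. By Xist and Y-linked reads, 4 of 5 MUT and 2 of 5 WT embryos were female, and among female embryos alone the EPI-biased share differed by -23.2 points (exact permutation p = 0.133, where 15 splits cannot reach 0.05). MUT 23 was the only male MUT embryo, with a share of 25% against 57.1%, 53.3% and 42.9% in the 3 male WT embryos. The labels do not explain the title letter. EPI-biased cells were 2 of 16 MUT and 3 of 14 WT cells with letter D, 0 of 8 and 7 of 14 with E, 1 of 6 and 11 of 15 with F, and 3 of 14 and 9 of 18 with H. With letter G, where WT had 3 cells, they were 4 of 11 and 0 of 3. The share of EPI-biased cells was thus lower in MUT for 4 of 5 letters and higher for G. The part of sex or letter in the difference was not tested.

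For the comparison across other genes, raw counts were summed per embryo and group, since cells of 1 embryo are not replicates. This gave 10 EPI-biased and 9 PrE-biased sums with 826394 to 71036593 counts, and MUT 2, with no PrE-biased cell, does not inform the contrast. In edgeR's quasi-likelihood test with the embryo as block, 8 of 9383 genes outside the score (0.0853%) passed a Benjamini-Hochberg adjusted p of 0.05, 5 higher (0.0533%) and 3 lower (0.032%) in PrE-biased cells. The count depended on the method, with 644 calls by DESeq2 and 67 by limma-trend, and it was 0 in WT and in MUT embryos alone, which are fewer. At an unadjusted p under 0.05 there were 453 genes (4.83%), 159 higher (1.69%) and 294 lower (3.13%). The same libraries gave the score and these values, whereas the E3.75 cells below are cells that the score did not use. Whether their lineage labels were assigned from the same markers is not known. The median difference over all genes was -0.20 on the log2 scale, and -0.12 with DESeq2's size factors in place of TMM. Levels below are TMM-scaled CPM per sum.

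Genes higher in PrE-biased cells included a water channel, a cell-surface protein linked to FGF signalling and a cofactor of DNA methylation. Aqp8 (chr7:123462291-123468004), an aquaporin, ranged from 0.597 to 161 CPM (median 25.7) in EPI-biased sums and from 369 to 897 CPM (median 564) in PrE-biased sums. The groups did not overlap. Its log2 difference was 4.97 (SE 0.69, adjusted p = 0.00572, higher in 9 of 9 embryos). Flrt3 (chr2:140650914-140671469), a leucine-rich membrane protein that interacts with FGF receptors, ranged from 0 to 6.06 CPM (median 0.777) in EPI-biased and from 8.68 to 442 CPM (median 97.4) in PrE-biased sums. These also did not overlap, with the lowest PrE-biased value in WT 16, whose sum is 1 cell. The log2 difference was 6.43 (SE 0.99, adjusted p = 0.0115, 9 of 9 embryos).

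Glipr2 (chr4:43957401-43979118), a Golgi-associated protein, ranged from 1.95 to 142 CPM (median 31.1) in EPI-biased and from 116 to 1916 CPM (median 401) in PrE-biased sums. The groups overlapped only between WT 21, at 142 CPM in its EPI-biased cells, and WT 20, at 116 CPM in its PrE-biased cells, while each embryo rose (log2 difference 3.64, SE 0.54, adjusted p = 0.00934). Dnmt3l (chr10:78041947-78063622), a catalytically inactive partner of the DNA methyltransferases DNMT3A and DNMT3B, ranged from 0.597 to 115 CPM (median 15) and from 39.5 to 650 CPM (median 223). The groups overlapped, and all 9 embryos were higher in their PrE-biased cells (log2 difference 4.09, SE 0.66, adjusted p = 0.0122). Pdzd3 (chr9:44247307-44251471), a PDZ-domain scaffold protein, ranged from 0 to 3.19 CPM (median 0.0755) and from 0 to 273 CPM (median 18.1). It was higher in 8 of 9 embryos and had no counts on either side in MUT 23 (log2 difference 8.66, SE 1.59, adjusted p = 0.045). Its call was lost without MUT 10, MUT 18, WT 13, WT 16, WT 20 or WT 22 (adjusted p 0.0622 to 0.185). Pdzd3 was not tested in the fit without WT 21, and it passed in 3 of the 9 fits without 1 embryo that tested it. Aqp8, Flrt3, Glipr2 and Dnmt3l passed without any 1 of the 10 embryos.

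The 3 genes higher in EPI-biased cells encode membrane proteins. Xkr8 (chr4:132724897-132732546), a phospholipid scramblase that exposes phosphatidylserine on dying cells, ranged from 12.8 to 242 CPM (median 64) in EPI-biased and from 0 to 7.74 CPM (median 0.288) in PrE-biased sums, without overlap. It fell by 7.70 on the log2 scale (adjusted p = 0.00308, lower in 9 of 9 embryos) and passed without any 1 embryo. Slc7a3 (chrX:101079210-101086020), a transporter of cationic amino acids, ranged from 0 to 454 CPM (median 68.6) and from 0 to 4.38 CPM (median 0.599). The EPI-biased cells of MUT 2 and MUT 23 had none, and WT embryos held 4 of the 5 highest EPI-biased values. Slc7a3 was lower in 8 of 9 embryos and at 0 on both sides in the remaining one (log2 difference -6.91, SE 1.16, adjusted p = 0.021), and its adjusted p was 0.0617 without WT 21 and 0.172 without WT 22.

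Pdpn (chr4:143267431-143299564), the mucin-type glycoprotein podoplanin, ranged from 115 to 458 CPM (median 258) in EPI-biased and from 0 to 133 CPM (median 30) in PrE-biased sums. Only the EPI-biased cell of MUT 2 and the PrE-biased cells of WT 21 overlapped. The log2 difference was -3.34 (SE 0.63, adjusted p = 0.045, lower in 9 of 9 embryos), and the call was lost without MUT 10, MUT 18, MUT 24, WT 13, WT 16, WT 20 or WT 22 (adjusted p 0.0502 to 0.185, log2 difference -3.53 to -3.20). The count over all genes also leaned on 2 embryos, with 18 genes passing without WT 16 and 5 without WT 22. The PrE-biased sum of WT 16 is 1 cell of 25095390 counts.

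**Figure D4:**
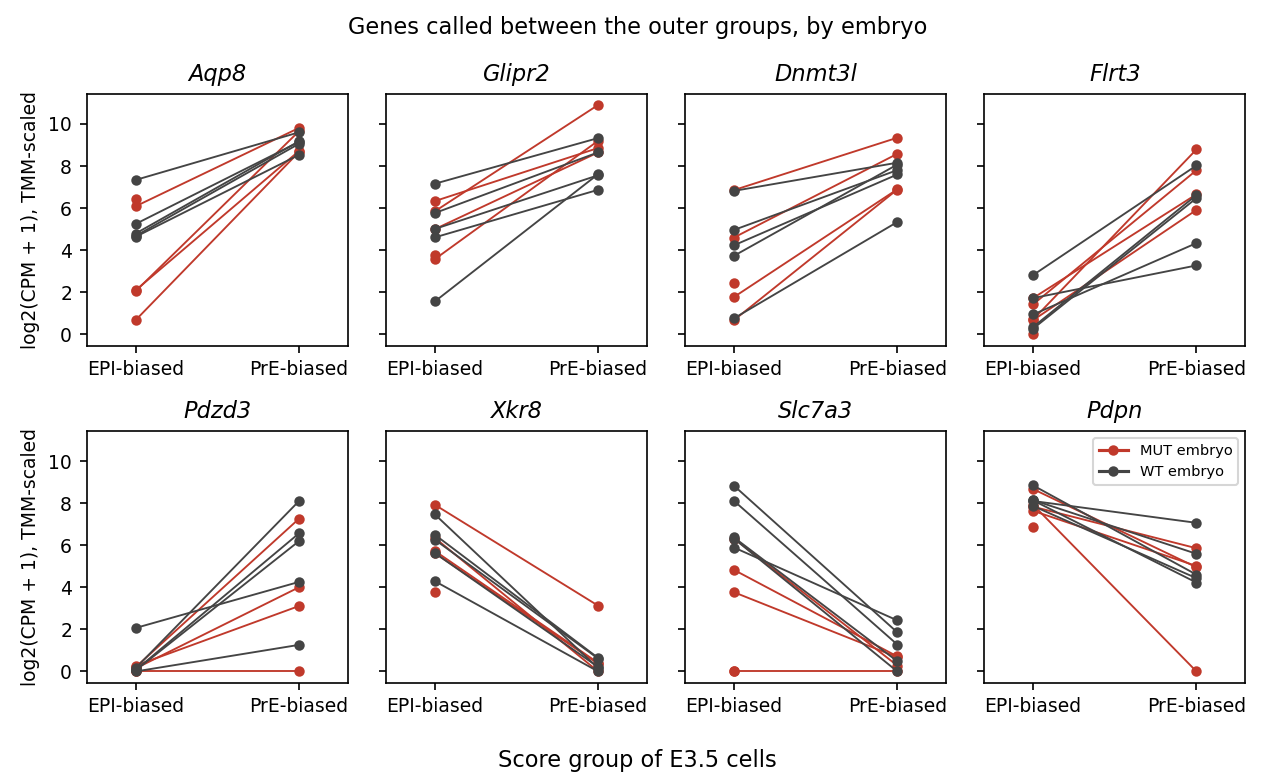
Lines join the EPI-biased and PrE-biased sums of 1 embryo for the 8 genes past the threshold, as TMM-scaled log2(CPM + 1); MUT 2 has an EPI-biased point only. The lines of Aqp8, Glipr2, Dnmt3l and Flrt3 rise and those of Xkr8 and Pdpn fall in all 9 embryos, and Pdzd3 and Slc7a3 each have 1 MUT embryo at 0 on both sides.

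Among genes that did not pass the threshold, receptors and adhesion genes had the smallest p on the PrE side. Fgfr2 (log2 difference 7.12, adjusted p = 0.0566), an FGF receptor, had a median of 0.209 CPM in EPI-biased and 52.6 CPM in PrE-biased sums and was higher in 8 of 9 embryos. The exception was WT 16, with no Fgfr2 counts in its 1 PrE-biased cell. Sdc4 (2.96, adjusted p = 0.0566), a heparan sulfate proteoglycan, did not overlap, at 2.09 to 229 against 321 to 949 CPM. F2r (6.70, adjusted p = 0.0824), a thrombin receptor, was higher in 9 of 9 embryos, with medians of 0.21 and 46.5 CPM. On the EPI side, Spic (-5.33, adjusted p = 0.0566), an ETS-family transcription factor, did not overlap, with 103 CPM or more in every EPI-biased and 56.1 CPM or less in every PrE-biased sum. Prps1 (-1.78, adjusted p = 0.0914), an enzyme of nucleotide precursor synthesis, Enox1 (-7.07), Gm45871 (-6.80) and Trim43a (-5.71) had the same adjusted p. Trim43a has close paralogs, so its counts are uncertain.

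The labelled E3.75 cells gave the same contrast in cells that the score groups did not use; embryo numbers were read within each stage, and MUT 2 occurs at both. Here 346 of 11036 genes outside the score (3.14%) passed the threshold, 218 higher (1.98%) and 128 lower (1.16%) in PrE, over 14 sums of 7 embryos. The EPI sum of MUT 2 and the PrE sum of WT 3 are 1 cell each, and without these sums 114 genes passed. The count was 139 without WT 2, 168 without MUT 1, 184 without MUT 4, 187 without MUT 5 and 205 without WT 3. The 8 score genes also passed, but how the lineage labels were assigned is not known, so these p values may not be independent of the labels. Among them were Gata4 (log2 difference 7.07, adjusted p = 4.91e-04), Gata6 (4.17, adjusted p = 0.019), Sox17 (5.36, adjusted p = 0.0167), Pdgfra (5.85, adjusted p = 0.0127), Nanog (-6.83, adjusted p = 0.00412) and Fgf4 (-8.08, adjusted p = 2.78e-05). Prdm14 (-6.31, adjusted p = 0.036) and Sox2 (-4.56, adjusted p = 0.0454) passed closer to the threshold. All 8 genes called between the E3.5 groups had the same sign at E3.75 and 6 of them passed there. That is 75% of the E3.5 list and 2% of the 300 E3.75 genes outside the score tested at both stages. The same sign was seen for 60% of all 9172 genes tested at both stages, 84.3% of the 433 with an unadjusted p under 0.05 at E3.5, 87.4% of the 183 called higher and 96.6% of the 117 called lower at E3.75. The median E3.5 difference was 1.07 for those called higher, against 2.12 at E3.75, and -1.24 for those called lower, against -1.66.

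The 6 genes called at both stages were Aqp8, Flrt3, Glipr2, Pdzd3, Slc7a3 and Pdpn. At E3.75, Flrt3 was at 2.32 ± 1.74 CPM in EPI and 346 ± 188 CPM in PrE (SD, n = 7, log2 difference 7.34, adjusted p = 0.00252). Glipr2 differed by 5.83 (adjusted p = 0.00575) and Pdzd3 by 7.79 (adjusted p = 4.91e-04), and neither overlapped between lineages. Slc7a3 was at 422 ± 249 CPM in EPI and 6.14 ± 7.88 CPM in PrE (SD, n = 7, log2 difference -7.05, adjusted p = 0.00891). Pdpn differed by -4.86 (adjusted p = 0.0165, 0.0578 without MUT 1 and 0.0601 without WT 2). Aqp8 differed by 5.49 (adjusted p = 0.0197) and was higher in PrE in 7 of 7 embryos, but its adjusted p lay between 0.0504 and 0.0671 without any 1 embryo other than WT 1. Fgfr2 (7.31, adjusted p = 0.0103), Sdc4 (3.23, adjusted p = 0.00662), F2r (6.93, adjusted p = 0.0109), Spic (-7.19, adjusted p = 0.00455) and Trim43a (-5.56, adjusted p = 0.00789), which missed the threshold at E3.5, passed at E3.75. Enox1 (-6.36, adjusted p = 0.0751), Prps1 (-2.51, adjusted p = 0.111) and Gm45871 (-2.64, adjusted p = 0.484) missed it at both stages.

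Dnmt3l and Xkr8 passed at E3.5 and not at E3.75 in edgeR. DESeq2 called both at E3.75 (Dnmt3l 0.85, adjusted p = 0.0475, and Xkr8 -3.36, adjusted p = 2.95e-04), and limma-trend called Xkr8 (adjusted p = 0.0312). Dnmt3l was at 31.8 ± 44.1 CPM in EPI-biased (SD, n = 10) and 253 ± 181 CPM in PrE-biased sums (SD, n = 9), and at 130 ± 95.6 CPM in EPI and 192 ± 64.9 CPM in PrE at E3.75 (SD, n = 7). The E3.75 difference was 0.87 (adjusted p = 0.206), with EPI cells above the E3.5 EPI-biased mean. Xkr8 was at 84.5 ± 72 and 1.08 ± 2.51 CPM at E3.5 (SD, n = 10 and 9), and at 40 ± 32 CPM in EPI and 4.41 ± 4.61 CPM in PrE at E3.75 (SD, n = 7, log2 difference -3.33, adjusted p = 0.177, lower in 7 of 7 embryos). In an edgeR fit of both stages, the difference between the stages was -3.24 for Dnmt3l (unadjusted p = 2.72e-04) and 4.32 for Xkr8 (unadjusted p = 0.00401). Neither passed adjustment (adjusted p = 1), nor did any of 12963 genes (0%), with 398 at an unadjusted p under 0.05. The title letters are A to C at E3.75 and D to H at E3.5. Stage, letter, the way cells were assigned and depth cannot be told apart here. Sex also differed in part, since by Xist and Y-linked reads all MUT embryos were male at E3.75 and only MUT 23 was at E3.5.

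**Figure D5:**
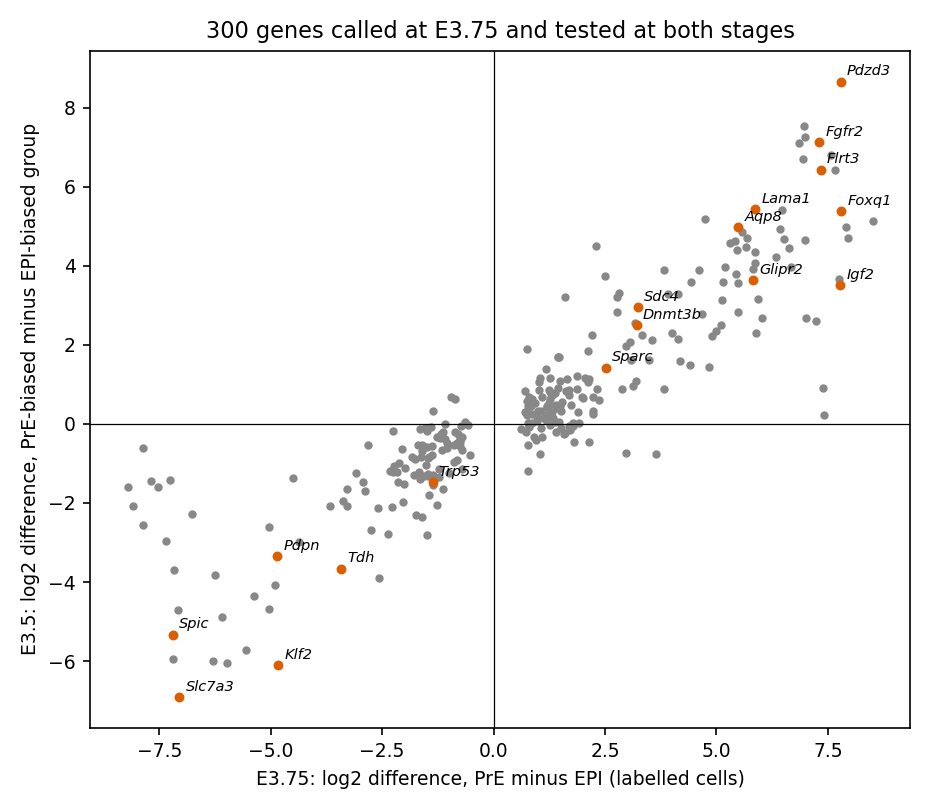
Each point is 1 of the 300 genes outside the score that passed at E3.75 and were tested at both stages, with the E3.75 log2 difference (PrE minus EPI, labelled cells) on the x axis and the E3.5 log2 difference between the outer groups on the y axis. Of these genes 91% have the same sign at both stages, and named genes are in orange.

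Gene groups were described by their counts and medians, beside a median of -0.20 and 3797 of 9383 genes higher over all genes. Of PrE transcription factors outside the score, 6 of 7 tested were higher in PrE-biased cells (median 4.08), 3 with an unadjusted p under 0.05 and none past the threshold. Sox7 (4.97, adjusted p = 0.917), Foxq1 (5.39, adjusted p = 0.707) and Creb3l2 (4.34, adjusted p = 0.862), a factor of secretory pathway genes, were the 3. Hnf4a, a factor of the later visceral endoderm, was the exception (-2.87, adjusted p = 0.999). At E3.75, 8 of 8 were higher and 5 passed, with Foxq1 at 7.80 (adjusted p = 3.22e-04) and Sox7 at 7.90 (adjusted p = 9.52e-04).

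Basement membrane and collagen-processing genes leaned the same way, with 12 of 14 tested higher (median 1.85), 6 of them and 1 lower gene at an unadjusted p under 0.05, and none past the threshold. Sparc, a collagen-binding matrix protein, was at 366 ± 173 CPM in EPI-biased (SD, n = 10) and 860 ± 326 CPM in PrE-biased sums (SD, n = 9), higher in 9 of 9 embryos (1.42, adjusted p = 0.105). Lama1, a laminin chain, had medians of 1.65 and 184 CPM (5.44, adjusted p = 0.185), and Serpinh1, a collagen chaperone, differed by 4.44 (adjusted p = 0.647). At E3.75, 10 of 15 passed, all higher in PrE, with Sparc at 2.52 (adjusted p = 0.00143) and Lama1 at 5.87 (adjusted p = 0.00858). Of the endocytosis and transport genes of absorptive endoderm, 8 of 10 tested were higher (median 4.09) and Aqp8 passed. The endocytic receptor Cubn (4.22, adjusted p = 0.589) and its partner Amn (5.42, adjusted p = 0.917) did not pass at E3.5 and did at E3.75 (6.34, adjusted p = 0.0129, and 6.48, adjusted p = 0.0151).

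FGF receptors and ERK response genes split. Of 16 tested, 8 were higher and 8 lower (median -0.01, and 0.09 with DESeq2's size factors), and none passed. Fgfr2 and Fgfr3 (7.11, adjusted p = 0.142) were the 2 higher at an unadjusted p under 0.05. Etv5, an ERK-responsive ETS factor, was lower in PrE-biased cells in 8 of 9 embryos (-1.64, adjusted p = 0.917). At E3.75 Etv5 was lower in PrE (-3.29, adjusted p = 0.0482) and Fgfr3 higher (6.85, adjusted p = 0.0343).

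Naive pluripotency genes leaned to EPI-biased cells, with 16 of 20 tested lower in PrE-biased cells (median -0.85), 8 at an unadjusted p under 0.05 and none past the threshold. Tdh, threonine dehydrogenase, was at 356 ± 248 CPM in EPI-biased (SD, n = 10) and 47.4 ± 61.3 CPM in PrE-biased sums (SD, n = 9), lower in 9 of 9 embryos (-3.66, adjusted p = 0.164). Klf2 differed by -6.11 (adjusted p = 0.279) and Zfp42 by -1.24 (adjusted p = 0.396). Pou5f1, which encodes OCT4, was lower in PrE-biased cells of 7 of 9 embryos and did not pass (-0.66, adjusted p = 0.999). Klf5 was higher in PrE-biased cells of 7 of 9 embryos (0.52, adjusted p = 0.999). At E3.75, 9 of 22 passed, all lower in PrE, including Tdh (-3.43, adjusted p = 0.0147), Klf2 (-4.83, adjusted p = 0.0344), Zfp42 (-3.08, adjusted p = 0.00455) and Esrrb (-2.03, adjusted p = 0.0193). Of the LIF and STAT3 pathway genes, 9 of 15 tested were lower (median -0.88) and none passed at either stage, with Icam1 at -4.41 (adjusted p = 0.618) and Socs2, a feedback inhibitor of cytokine receptors, at -2.80 (adjusted p = 0.692). Stat3 itself differed by -0.72 (adjusted p = 0.999), and this value pools MUT and WT embryos.

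Nodal and BMP genes were split, with 7 of 13 tested higher (median 0.09) and 3 lower at an unadjusted p under 0.05. Those were Id3, a BMP-responsive inhibitor of differentiation (-1.59, adjusted p = 0.327), Tdgf1, the Nodal co-receptor Cripto (-1.80, adjusted p = 0.384), and Gdf3 (-1.52, adjusted p = 0.647). The Tdgf1 value pools genotypes of unlike level. EPI-biased sums had 49.1 to 605 CPM in MUT and 1322 to 2197 CPM in WT. PrE-biased sums had 11.8 to 64 CPM in MUT and 503 to 2032 CPM in WT. Tdgf1 was lower in PrE-biased cells of 8 of 9 embryos and higher in those of WT 16. Gdf3 alone of this list passed at E3.75 (-2.02, adjusted p = 0.00662). Of formative and primed genes, 4 of 5 tested were higher (median 0.86). The higher ones at an unadjusted p under 0.05 were the DNA methyltransferases Dnmt3a (2.15, adjusted p = 0.997) and Dnmt3b (2.50, adjusted p = 0.918), which also were higher in PrE at E3.75 (4.14, adjusted p = 0.0167, and 3.21, adjusted p = 0.00455). Otx2, a factor of the later epiblast in the same list, differed by -1.45 (adjusted p = 0.999) and was lower in PrE at E3.75 (-7.68, adjusted p = 4.91e-04). Of the other DNA methylation genes, 8 of 13 were lower (median -0.83), 4 of them at an unadjusted p under 0.05. Dnmt3l was the 1 higher gene at that level, and it passed. At E3.75, 2 of 13 were higher, and 1 passed as lower in PrE.

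Metabolic, imprinted and stress genes had no call at E3.5. Of mitochondrially encoded mRNAs, 11 of 12 tested were lower in PrE-biased cells (median -0.27, against -0.20 over all genes), among them mt-Nd5 (-0.60, adjusted p = 0.98) and mt-Nd4 (-0.39, adjusted p = 0.999). Of glycolysis genes, 7 of 16 were higher (median -0.07, and 0.03 with DESeq2's size factors), with the phosphofructokinase genes Pfkl (3.21, adjusted p = 0.711) and Pfkp (3.63, adjusted p = 0.855) at the smallest p. Pfkl also was higher in PrE at E3.75 (2.77, adjusted p = 4.91e-04), where Pfkp differed by 0.05 (adjusted p = 0.994). Of TCA cycle genes, 10 of 26 were higher (median -0.10), with Glud1 at 0.92 (adjusted p = 0.999) and Sucla2 at -0.78 (adjusted p = 0.995). Imprinted genes, which the series title names, were tested for 27 of 50 members, 15 of them higher (median 0.09) and none at an unadjusted p under 0.05. Igf2 was at 0.542 ± 0.928 CPM in EPI-biased (SD, n = 10) and 2.71 ± 3.93 CPM in PrE-biased sums (SD, n = 9, log2 difference 3.51, adjusted p = 0.999), and at E3.75 at 0.503 ± 1.1 and 31.1 ± 40.2 CPM (SD, n = 7, log2 difference 7.77, adjusted p = 0.0132). Meg3 passed neither at E3.5 (adjusted p = 0.999) nor at E3.75 (log2 difference 1.16, adjusted p = 0.811).

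Of p53 and cell death genes, 5 of 12 were higher (median -0.47), with Trp53 at -1.47 (adjusted p = 0.999) and Trp53inp1 at -3.12 (adjusted p = 0.999). Trp53 was lower in PrE at E3.75 (-1.37, adjusted p = 0.00575). Of immediate early and heat shock genes, 3 of 12 were higher (median -0.54), with the endoplasmic reticulum chaperone Hspa5 at 0.69 (adjusted p = 0.972) and Hsp90aa1 at -0.52 (adjusted p = 0.999). Hspa5 was higher in PrE at E3.75 (2.23, adjusted p = 0.0115). Of trophectoderm markers, 6 of 9 tested were lower in PrE-biased cells (median -1.50), with the tight junction gene Cldn4 at -5.66 (adjusted p = 0.142) and Tfap2c at -5.88 (adjusted p = 0.647).

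Whether the difference between the groups depended on genotype was tested as an interaction. No gene of 9383 (0%) passed in edgeR, with 198 at an unadjusted p under 0.05, whereas DESeq2 called 292. The 5 smallest p values belonged to Vps41, which acts in transport to lysosomes (3.95, unadjusted p = 0.00109), Krt18, a keratin (8.81, SE 2.25, p = 0.00121), Dusp3, a phosphatase (14.67, SE 3.53, p = 0.00155), Fcho2, an endocytosis protein (12.12, SE 3.20, p = 0.00156), and the long noncoding RNA 5031425E22Rik (9.23, SE 2.43, p = 0.00195), each from edgeR with an adjusted p of 1. In all 5 the difference was more positive in MUT. Of the genes called between the groups, Aqp8 differed most by this test (3.22, SE 1.03, unadjusted p = 0.0066, adjusted p = 1), with EPI-biased levels of 0.597, 3.15, 3.27, 67 and 86.5 CPM in MUT and 23.9 to 161 CPM in WT embryos.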

How the data were processed

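The measurement was RNA sequencing of single mouse cells, 1 deposited sample per cell. The authors deposited whole-number counts per gene without normalization (49671 rows, 171 cells). STAR, HTSeq and the build mm10 are named in the submitters' processing notes; the sources used here give no settings, strand or library method, so reads of overlapping, antisense or near-identical genes may be shared. Gene names and positions come from GENCODE vM21 (49326 rows matched, the others held 0.0101% of counts). The first number after the genotype in a title was read as the embryo number, although no label says so in words. At E3.5 the WT numbers 16_01, 16_02, 20_01, 21_02 and 22_01 each occur with different final letters. These were kept as separate cells of the same embryo, which the labels neither state nor exclude. No cell was removed and none had the same counts as another. Without molecular identifiers, floors cover counting error only.

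The score cells, the 16 gene lists and the tests were chosen with earlier results of these data known. Lists share members (Eomes, Id2, Zfp57, Dppa3, Fos, Egr1, Ier2, Junb). Counts were summed per embryo and score group (19 sums) or labelled lineage (14 sums) and tested in edgeR 4.0.16 (R 4.3.3) by quasi-likelihood, with TMM scaling, the embryo as block, robust estimation, Benjamini-Hochberg adjustment and only genes kept by filterByExpr (minimum count 10). Both sums of an embryo come from the same animal, so the block pairs them. Score genes stayed in library sizes and in the adjustment and out of counts of calls at both stages. An SE is the log2 difference over the root of the F statistic and restates the test. Shares were compared with exact permutation tests over embryos (scipy 1.17.1). In simulated counts at E3.5 (9298 genes), 16.2% of genes changed by a log2 fold of 2 and 47% of those changed by 4 were recovered, and 0.011% of unchanged genes were called; at E3.75 (10826 genes) the shares were 26.3%, 59.4% and 0.00941%. The counts were simulated without differences between embryos, for which the fit to the data allows, so the shares in the data may differ. Changes of these sizes could thus go uncalled.

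Named genes were Stat3, then genes past the E3.5 threshold with at least 10 CPM in 1 score group and the same sign without each embryo, and, where fewer than 5 qualified in a direction, the 8 smallest p values of that direction. Up to 4 called members of each list, or else the 2 with the smallest p, and the 5 smallest interaction p values were added. Sox7, Hnf4a, Serpinh1, Cubn, Amn, Etv5, Zfp42, Pou5f1, Klf5, Esrrb, Gdf3 and Otx2 were named for their role after their values were seen. Alternatives were RLE scaling, no low-count filter, DESeq2 (1.42.0), no replicate block, limma-trend (3.58.1) on cell means of log2(CPM + 1), no sums of 1 cell, each embryo left out, 1 genotype alone, score groups within embryos, 30 cells per side, markers scaled to SD 1, cells thinned to 500000 counts, and removal of 7 shallow cells. Removal of the 6 cells with discordant sex reads or of the E3.75 cell high in trophectoderm markers, and the fit of both stages, were chosen after seeing the data.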

Additional observations from a re-analysis of the deposited data

Results flagged for a closer look

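Pdpn in MUT 23 stood apart from the other embryos. Its difference between the groups, in log2(CPM + 1), was -7.92, against -4.24 to -1.04 in the other 8 embryos. The PrE-biased sum of MUT 23 is 1 cell of 826394 counts with no Pdpn reads, and a count of 0 there allows up to 3.63 CPM (3 counts of the total). This was 1 flag among 14 sets of 4 to 10 embryos examined, and about 1 in 20 such sets is marked by chance. Without MUT 23, Pdpn differed by -2.97 (adjusted p = 0.018, edgeR).

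Fcho2, Krt18 and Vps41, among the 5 genes with the smallest interaction p values, had differences of opposite direction in MUT and WT embryos. Each was higher in PrE-biased than EPI-biased cells in all 4 MUT embryos that have both and lower in all 5 WT embryos. The mean log2(CPM + 1) difference in MUT exceeded that in WT by 5.88 for Fcho2, 5.28 for Krt18 and 3.83 for Vps41. The edgeR interaction test gave unadjusted p values of 0.00156, 0.00121 and 0.00109 and an adjusted p of 1 for each, so none passed. The genes were picked by this same test from 9383 genes, and how many of all genes split in this way was not counted. Fcho2 stayed at or under 27.7 CPM in every sum. Krt18, a trophectoderm marker, was at 100 and 223 CPM in the PrE-biased cells of MUT 18 and MUT 24. It was at 5.96 and 1.32 CPM in those of MUT 10 and MUT 23 and at most 21.1 CPM in those of WT embryos. Some directions rest on values near 0, such as Krt18 in MUT 23 (0 against 1.32 CPM) and Fcho2 in WT 22 (0.0695 against 0 CPM). Vps41 ranged from 4.13 to 122 CPM in EPI-biased MUT sums and from 95.2 to 712 CPM in WT sums.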

How the results depend on the processing

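The number of genes called between the E3.5 groups (8) was 29 without the low-count filter, 644 with DESeq2, 67 with limma-trend, 18 without sums of 1 cell, 18 with groups ranked within embryos, 0 in WT embryos alone (381 at an unadjusted p under 0.05) and 0 in MUT embryos alone (337). Without the replicate block it was 20, with Dnmt3l lost (adjusted p = 0.157). Leaving out 1 embryo gave 5 to 18 calls. At E3.75 the 346 calls became 1798 with DESeq2, 674 with limma-trend, 114 without sums of 1 cell, 0 in WT alone (1061 at an unadjusted p under 0.05) and 71 in MUT alone, and 139 to 344 without 1 embryo. Without the E3.75 cell high in trophectoderm markers there were 315. The genotype interaction had 292 calls with DESeq2 and 0 under the others. WT or MUT alone has fewer embryos; the cause of the other shifts was not tested. Xkr8, Aqp8, Flrt3 and Glipr2 passed under 22 of 24 alternatives, all but the fits to 1 genotype. Besides embryos left out and fits to 1 genotype, Slc7a3 was lost with groups within embryos (adjusted p = 0.328) and thinned cells (0.135), Dnmt3l (0.0725) and Pdpn (0.0709) with 30 cells per side, and Pdzd3 with limma-trend (0.146), without sums of 1 cell (0.0986) and without shallow cells (0.0573).

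The EPI-biased share differed by -32.8 to -24.1 points under the alternatives over both sexes and by -23.2 in female embryos alone. The PrE-biased share differed by -0.895 to 17.5 points without 1 embryo and by 4.9 (without shallow cells) to 19.2 points (30 cells per side) under other choices of cells.

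Of 2399 values of single genes under an alternative, 52 reversed sign, all in genes that passed in neither value. At E3.5, 5031425E22Rik was at 0.68 with DESeq2, 0.13 without the block, 0.04 with limma-trend, 0.52 without sums of 1 cell and 5.28 in MUT alone (-1.66 to 0.76 without 1 embryo). Dusp3 was at 5.10 and Krt18 at 2.35 in MUT alone, and Krt18 at 0.06 without the block and 0.16 with groups within embryos. Fcho2 was at -0.06 without the filter, -6.14 in WT alone and -1.06 without the cells of discordant sex reads (-1.54 to 1.55 without 1 embryo). Vps41 was at -0.20 without the block, -0.19 without sums of 1 cell, -1.32 in WT alone and -0.18 without the discordant cells (-0.21 to 0.61), and Klf5 at -0.11 in WT alone. At E3.75, in WT alone Cldn4 was at 0.08, Dusp3 at 2.97, Hnf4a at -2.09, Stat3 at -0.82 and mt-Nd4 at 0.22, in MUT alone Pfkp was at -2.19 and Vps41 at 0.00, and without sums of 1 cell Dusp3 was at 0.17 and Fcho2 at 0.24. Pfkp was at -0.21 with limma-trend and Stat3 at -0.43 without the block. Without 1 embryo, Dusp3 ranged from -1.85 to 0.11, Hnf4a from -0.45 to 1.38, Pfkp from -0.78 to 0.90, Stat3 from -0.14 to 1.04 and mt-Nd4 from -0.11 to 0.07.

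At E3.5 the sums of MUT 2 and MUT 23 and the PrE-biased sum of WT 16 are 1 cell each, as are the EPI sum of MUT 2 and the PrE sum of WT 3 at E3.75, so that they cannot average over cells. Where the labels do not say how cells were picked, p values cover only the spread between these embryos.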
